A study of Homo sapiens with 6 samples.

Results

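The clustered histone genes encode the replication-dependent histones H1, H2A, H2B, H3 and H4 and lie close together in groups on chromosomes 1, 6 and 12. They were taken as the rows of the deposited expression table whose symbol begins with HIST1H, HIST2H, HIST3H or HIST4H and does not end in PS or in PS and digits. This gave 75 of 59074 rows, of which 6 are H1, 16 H2A, 23 H2B, 15 H3 and 15 H4 genes, and left out 13 rows. By group, 55 rows belong to HIST1 on chromosome 6, 15 to HIST2 and 4 to HIST3 on chromosome 1, and 1 to HIST4 on chromosome 12.

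The cells were established human lines from glioblastoma, a malignant brain tumor: U251, T98G and LN-229. Their RNA was taken 72 h after transfection with siPOOLs, which are pools of siRNAs. The siPOOLs were either non-target (siControl) or specific for the long non-coding RNA HOTAIRM1 (siHOTAIRM1), and there was 1 library for each cell line and condition, 6 libraries in all. The titles of the first line spell its name LNT229 and the cell line entry LN-229. Each condition was measured in a single culture of each line as far as the labels say, and the 3 lines served as replicates of the knock-down. The comparison asks which transcripts change when HOTAIRM1 is lowered. HOTAIRM1 itself was at 1.99, 3.49 and 1.27 CPM (read counts scaled to library depth) in the siControl libraries of LN-229, T98G and U251, and at 0.952, 2.15 and 0.623 CPM in the siHOTAIRM1 libraries (log2 change −0.54, SE 0.12, n = 3 lines, limma adjusted p = 0.0146). This call was lost with no filter on level, without the cell line as block and with a paired t-statistic per gene. It was also lost without T98G, and 0 genes of the whole table were called in each of these fits.

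DNA in the nucleus is wound around an octamer of the core histones H2A, H2B, H3 and H4, and H1 binds the linker DNA between octamers. Cells make most of this protein during S phase from the clustered genes, which lack introns in their main transcripts. Their mRNAs do not normally carry a poly(A) tail. They end shortly after a conserved stem-loop that is bound by the stem-loop binding protein SLBP, which acts in their processing, translation and decay. The libraries were made with a kit that captures RNA on oligo-dT beads, so the level of such an mRNA here depends on how much of it was captured as well as on its amount in the cell, and these cannot be told apart. In bulk RNA, fewer cells in S phase and less histone mRNA per cell cannot be told apart either.

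The stem-loop could be found in the genome next to nearly all members. In GENCODE v44 on hg38, 74 rows were matched, 69 of them to protein-coding genes and 5 to pseudogenes, and HIST2H2BA was not matched. A hairpin of 16 bases was searched on the coding strand in the 150 bases after the stop codon, with a stem of 6 base pairs that opens with GG and closes with CC, at most 1 mismatch, and a loop of 4 bases that opens with TT. It was present for 66 of the 69 coding members, 23 to 68 bases after the stop codon (median 36.5). Of all 19924 protein-coding genes with such a window, 0.532% held it, and 40 genes that are not members did. No match was found for HIST1H2BI, HIST1H3E and HIST1H4L. The poly(A) signal AATAAA was in the same window of 4 members, HIST1H1C, HIST1H2BD, HIST1H4J and HIST2H2AA4, against 13.9% of all windows.

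The hairpins fell into few kinds, and the examples below belong to the member with the highest level (HIST1H1C), the 3 members past the threshold on knock-down (HIST1H4B, HIST1H4C and HIST1H3G), and a member of each other common kind. They are printed 5′ to 3′ as DNA of the coding strand in hg38, with the hairpin in capitals and 5 bases on each side in lower case. HIST1H1C is at chr6:26055739-26055764 on the minus strand, HIST1H4B at chr6:26026896-26026921 on the minus strand, HIST1H4C at chr6:26104312-26104337 on the plus strand, HIST1H3G at chr6:26270918-26270943 on the minus strand and HIST2H4A at chr1:149833027-149833052 on the plus strand.
HIST1H1C: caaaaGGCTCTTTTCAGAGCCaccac
HIST1H4B: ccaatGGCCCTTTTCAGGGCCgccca
HIST1H4C: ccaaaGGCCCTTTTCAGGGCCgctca
HIST1H3G: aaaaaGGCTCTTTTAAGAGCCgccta
HIST2H4A: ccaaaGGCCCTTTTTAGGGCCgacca

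The hairpin of HIST1H1C was shared by 39 members of the classes H1, H2A, H2B and H3, and that of HIST1H4B and HIST1H4C by 10 members, all of them H4 genes. That of HIST1H3G was found in 10 members of the classes H1, H2A, H2B and H3, and that of HIST2H4A in 4 H4 genes. HIST1H2AG, HIST1H2AK and HIST2H2AC each had a form of their own.

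Members of a class also share most of their protein. The 15 H4 genes encode 2 distinct proteins, and 14 of them the same one. The 14 coding H3 genes encode 3 proteins, 10 of them the same. The 16 H2A genes encode 11 proteins, the 18 coding H2B genes 14, and the 6 H1 genes 6 different ones of 207 to 226 residues. At the level of DNA most could be told apart: for 49 of 69 coding members every stretch of 87 coding bases, the length of a trimmed read, was found in no other member (pseudogenes and the rest of the genome were not searched). For 6 members no stretch was unique (HIST1H4J, HIST1H4K, HIST2H3A, HIST2H3C, HIST2H4A and HIST2H4B), so the split of reads between these and their near-identical copies is uncertain. The table holds a row for HIST2H2AA4, whose reads can be shared with a further near-identical copy.

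Libraries differed in ways that touch all members. Depth, read from the smallest steps between low values, was 52.3 to 104 M reads, and a level of 3 reads, taken as the floor, was 0.0289 to 0.0574 CPM. The listed rows summed to 42.9% to 67.2% of the full CPM scale. RNA that has no poly(A) tail as a rule (small nuclear, small nucleolar, 7SK and signal recognition particle RNA) took 9.8% to 13.1% of the listed CPM in 5 libraries and 20.4% in the siControl library of U251, which stood apart. Glial and glioma markers were uneven between the lines, with SOX2 and S100B at the floor or under it in T98G and GFAP above 1 CPM in U251 alone. PTPRC and RBFOX3, which mark leukocytes and neurons, were below 0.1 CPM in every library. CD68, a macrophage marker, was at 0.785 and 0.801 CPM in LN-229, 7.80 and 2.72 in T98G, and 1.055 and 0.324 in U251, siControl first. PECAM1, an endothelial marker, was at 0.374 and 0.212, 0.478 and 0.5225, and 0.0574 and 0.0198 CPM in the same order.

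Clustered histone RNA was readily measured in spite of poly(A) selection. The 75 rows summed to 2516 CPM in the siControl library of LN-229, 3234 CPM in that of T98G and 3907 CPM in that of U251. In the siHOTAIRM1 libraries the sums were 2580, 2428 and 2189 CPM in the same order. The order of the lines was therefore U251, T98G, LN-229 among the siControl libraries and the opposite among the siHOTAIRM1 libraries. As a share of the listed CPM the members took 0.535%, 0.644% and 0.581% in the siControl libraries and 0.532%, 0.566% and 0.391% in the siHOTAIRM1 libraries.

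**Figure D1:**
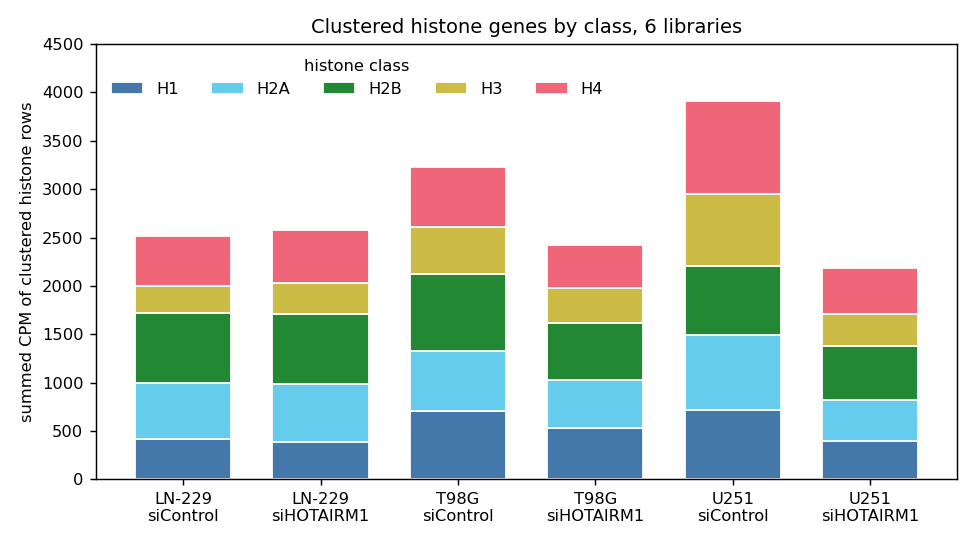
Summed CPM of the clustered histone rows of each class (stacked bars, colors) in the 6 libraries, on an axis that starts at 0. The bars stand at 2516 and 2580 CPM in LN-229, drop from 3234 to 2428 CPM in T98G and from 3907 to 2189 CPM in U251, and each value is 1 library.

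Levels were spread over many genes. Of the 75 rows, 63 had a mean of at least 1 CPM and entered the tests, 39 were at 10 CPM or more in every library and 11 were below 1 CPM in every library. The 10 members with the highest mean over the 6 libraries held 38.4% to 42.2% of the histone CPM of a library. The highest mean over the 6 libraries belonged to HIST1H1C, the linker histone H1.2, with 196 CPM, followed by HIST1H1B (H1.5) with 158, HIST2H2AA4 with 142, HIST2H4A with 122 and HIST1H4C with 110 CPM.

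Levels of different genes can be compared only per length, and the order then depends on the transcript taken. Per kilobase of the single-exon canonical transcript, HIST2H4A stood first (307 CPM per kb), followed closely by HIST1H4C (271), HIST1H1C (268) and HIST2H2AA4 (266), then HIST1H1B (199). Per kilobase of all annotated exons together, which count long spliced forms, HIST2H4A stood at 64.8 CPM per kb and the 4 others kept their values. HIST1H4B was at 165 and HIST1H2BG at 154 CPM per kb by either length, while HIST1H2BD was at 170 by the first and 95.9 by the second. The spread over the libraries was wider than the gaps between these neighbors: HIST1H1C was at 164 and 136 CPM in LN-229, 280 and 190 in T98G, and 250 and 154 in U251, siControl first.

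**Figure D2:**
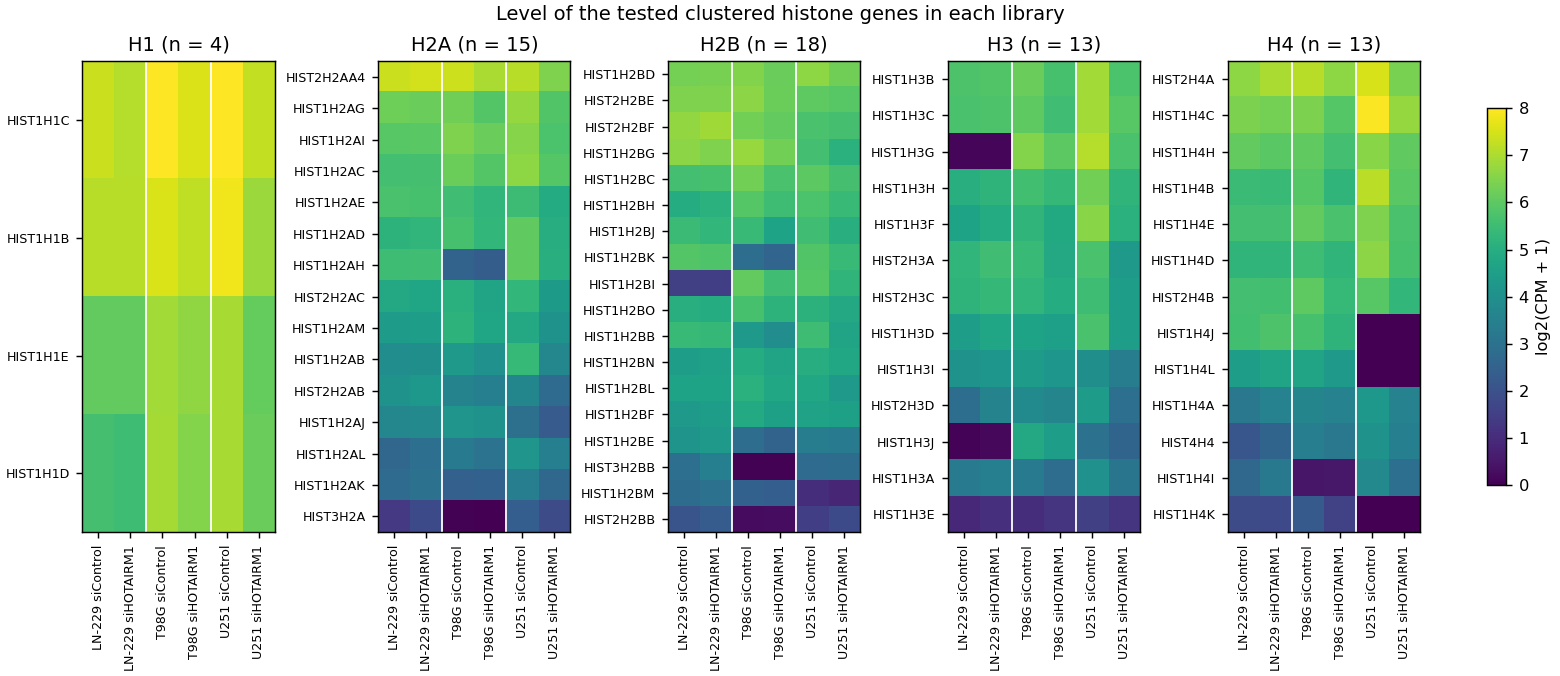
Level of the 63 tested clustered histone genes in the 6 libraries as log2(CPM + 1), 1 panel per class, genes ordered by mean level and white lines between the cell lines. Of these genes 52 are at 1 CPM or more in all 6 libraries. The dark cells mark genes near 0 in both libraries of 1 line, such as HIST1H3G in LN-229, HIST3H2BB in T98G and HIST1H4J in U251.

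The silent end of the list held the germ cell histones. HIST1H2AA, HIST1H2BA and HIST3H3 had at most 2 reads in any library, and HIST1H4G had none in all 6. HIST1H1T, the testis H1, had 2 to 7 reads in each library. HIST1H4F was detected only in T98G, at 0.767 CPM with siControl and 0.454 CPM with siHOTAIRM1. HIST1H1A (H1.1) was at 1.53 and 2.24 CPM in LN-229 and between 0.00988 and 0.116 CPM in the other libraries.

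The H1 class, the linker histones, summed to 421 and 389 CPM in LN-229, to 702 and 532 CPM in T98G and to 722 and 401 CPM in U251, siControl before siHOTAIRM1. The ratio of siHOTAIRM1 to siControl was 0.924 (95% interval 0.911 to 0.937), 0.757 (0.747 to 0.768) and 0.555 (0.548 to 0.563) in these lines. These intervals, and those that follow, cover counting error alone and not the spread between libraries, so they are no test of the knock-down. HIST1H1B, HIST1H1C, HIST1H1D and HIST1H1E carried the class, and all 4 were lower in T98G and in U251.

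H2A sums were 578 and 597 CPM in LN-229, 628 and 493 in T98G, and 766 and 422 in U251. Their ratios were 1.03 (1.02 to 1.05), 0.785 (0.774 to 0.796) and 0.552 (0.544 to 0.559). H2A pairs with H2B in the octamer, and in U251 the ratios of these classes lay apart. H2B sums were 718 and 724 CPM in LN-229, 797 and 593 in T98G, and 714 and 556 in U251, with ratios of 1.01 (0.998 to 1.02), 0.744 (0.735 to 0.754) and 0.779 (0.769 to 0.789).

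H3 and H4, which pair with each other, had the lowest ratios in U251. H3 sums were 286 and 323 CPM in LN-229, 482 and 363 in T98G, and 752 and 327 in U251, with ratios of 1.13 (1.11 to 1.15), 0.753 (0.741 to 0.765) and 0.434 (0.428 to 0.441). H4 sums were 512 and 546 CPM in LN-229, 625 and 447 in T98G, and 953 and 482 in U251, with ratios of 1.07 (1.05 to 1.08), 0.715 (0.705 to 0.726) and 0.506 (0.500 to 0.512). In the siControl library of U251 H3 made up 19.2% of the histone CPM and H2B 18.3%, and in its siHOTAIRM1 library 14.9% and 25.4%. In T98G these shares stayed at 14.9% for H3 in both libraries and at 24.6% and 24.4% for H2B.

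With all members together, siHOTAIRM1 differed from siControl by 2.56%, −24.9% and −44.0% (LN-229, T98G, U251). The whole library moved as well in T98G. When libraries were scaled to the same median of all tested genes, the differences were −0.351%, −12.9% and −40.6%, so that the sign in LN-229 turned. Without the non-polyadenylated RNA in the total they were 0.826%, −12.8% and −38.5%.

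Member by member, the same picture was seen within the lines. A change is the difference of log2(CPM + 1), siHOTAIRM1 minus siControl, and a size of 0.5 or more was counted as past the fold, without a test. In LN-229 3 of 63 members were past the fold upward and 0 downward, where 1.47% and 0.993% of all 14294 tested genes were (4.76% of members upward). In T98G 0 members were past it upward and 11 downward (17.5%), against 0.644% and 8.26% of all tested genes. In U251 0 were past it upward and 43 downward (68.3%), against 6.56% and 11.9% of all tested genes.

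The median change of the members was 0.08, −0.35 and −0.72 in the order LN-229, T98G, U251, where the median of all tested genes was 0.01, −0.19 and −0.03. Of the 63 members 59 were lower in T98G, 59 were lower in U251 and 42 were higher in LN-229. Of all 14294 tested genes 11335 were lower in T98G, 7610 lower in U251 and 7620 higher in LN-229. In all 3 lines 21 members (33.3%) were lower, against 28.1% of all tested genes, and HIST2H2BB, a pseudogene of the H2B class, was the 1 member higher in all 3. These counts take any difference below 0, also from few reads, as for HIST1H3G in LN-229 and HIST1H4K in U251. The same goes for HIST3H2A and HIST3H2BB in T98G.

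**Figure D3:**
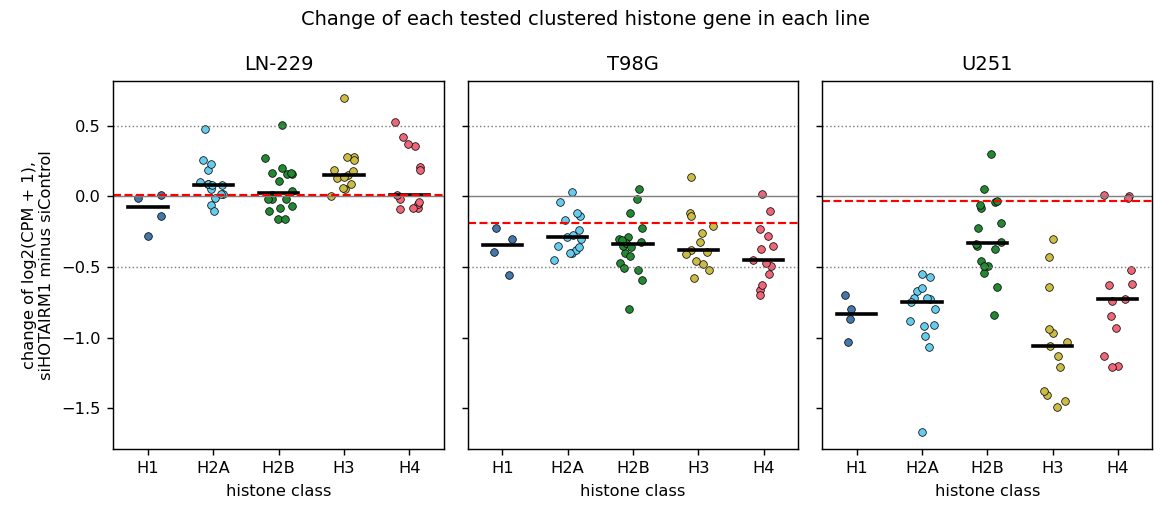
Change of each tested clustered histone gene (points) by class and cell line, as log2(CPM + 1) of siHOTAIRM1 minus siControl, with the class median (black bar), the median of all tested genes (red dashed line) and the fold of 0.5 in each direction (dotted lines); sideways spread is for display. In U251 all 15 H2A genes lie below −0.5 and most H2B genes above it, while the points of LN-229 lie around 0.

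The classes differed most in U251. Past the fold downward were 4 of 4 H1 genes, 15 of 15 H2A genes, 11 of 13 H3 genes and 10 of 13 H4 genes, but 3 of 18 H2B genes. The 3 other H4 genes (HIST1H4J, HIST1H4K and HIST1H4L) had at most 1 read in each U251 library and could show no change, so all 10 H4 genes above the floor were past the fold. Median changes there were −0.83 for H1, −0.75 for H2A, −0.33 for H2B, −1.06 for H3 and −0.73 for H4 (−0.80 over those 10). In T98G the 5 medians lay between −0.45 (H4) and −0.29 (H2A), with H2B at −0.34, and in LN-229 between −0.07 (H1) and 0.15 (H3). These differences between classes were not tested, since there is 1 library per line and condition.

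The gap between H2B and the rest was also there among members with the same hairpin. Of members with the commonest hairpin, 11 of 11 tested H2A genes and 10 of 11 H3 genes were past the fold downward in U251, but 1 of 11 H2B genes. The same held for members with single-exon transcripts only, with 13 of 13 H2A, 11 of 11 H3 and 2 of 10 H2B genes. The 16 coding members with an annotated spliced transcript summed to a ratio of 0.666 in U251 (0.657 to 0.675), against 0.534 (0.530 to 0.537) for the 53 with single-exon transcripts only. In T98G the ratios of these groups were 0.736 and 0.755, and in LN-229 1.08 and 1.01.

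By group on the chromosomes there was less difference. The HIST1 rows had sum ratios of 0.995, 0.751 and 0.552 in LN-229, T98G and U251, and the HIST2 rows 1.11, 0.750 and 0.592. Members with every coding stretch unique had ratios of 0.991, 0.753 and 0.536, and the 20 others 1.08, 0.745 and 0.631. The 4 members with AATAAA in the window had ratios of 0.978, 0.723 and 0.650.

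Single members showed the extremes. In U251 the lowest change was that of the H2A gene HIST1H2AB, which was at 14.03 and 14.85 CPM in LN-229, at 18.9 and 15.5 in T98G, and at 40.3 and 11.99 CPM in U251, siControl first, a change of −1.67. The U251 siControl library was thus the high one and its siHOTAIRM1 library the lowest of the 6. HIST2H3D was at 6.37 and 11.0 CPM in LN-229, at 12.8 and 11.5 in T98G, and at 20.2 and 6.54 CPM in U251. This H3 gene had the largest rise of log2(CPM + 1) in LN-229 (0.70) and the second lowest change in U251 (−1.49), without a difference past its threshold over the lines (limma adjusted p = 0.441).

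HIST1H3F, an H3 gene, was next in U251 (−1.45), with 94.0 CPM in siControl and 33.8 in siHOTAIRM1. In T98G the lowest changes were those of HIST1H2BJ (−0.80), HIST1H4K (−0.70) and HIST1H4B (−0.66). HIST1H2BJ was at 42.3 and 23.9 CPM there, at 42.97 and 38.4 in LN-229 and at 45.6 and 31.1 in U251, lower with siHOTAIRM1 in all 3 lines. The highest changes were small in T98G (HIST1H3E 0.14, HIST2H2BB 0.05 and HIST1H2AK 0.03) and in U251 (HIST2H2BB 0.30 and HIST3H2BB 0.05, with HIST1H4L next in order at 0 reads and 1 read, which measures no change). In LN-229 HIST1H4I (0.53) and HIST3H2BB (0.51) followed HIST2H3D, and the lowest were HIST1H1C (−0.28), HIST1H2BG (−0.16) and HIST1H2BJ (−0.16).

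Over the 3 lines, limma with the cell line as block called 3 of 63 members (4.76%) lower with siHOTAIRM1 and 0 higher at an adjusted p under 0.05. Of all 14294 tested genes 1.59% were called lower and 0.413% higher. At an unadjusted p under 0.05 there were 32 members and 2622 of all tested genes. The median fitted change was −0.34 for the members and −0.07 for all tested genes. A fitted change below 0 was found for 60 of the 63 members and for 9114 of all 14294 tested genes. By class, 1 of 13 H3 and 2 of 13 H4 genes were called, and none of the 4 H1, 15 H2A and 18 H2B genes, of which 4, 8 and 5 had an unadjusted p under 0.05.

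HIST1H4B, an H4 gene (ENSG00000278705, chr6:26026896-26027283), was at 42.8 and 41.2 CPM in LN-229, at 59.0 and 37.0 in T98G, and at 143 and 61.2 CPM in U251, siControl first. It fell by 0.64 on the log2 scale (SE 0.16, n = 3, limma adjusted p = 0.0322) and was lower in 3 of 3 lines, although by only 0.05 in LN-229. The siControl library of U251 stands apart from the other 5, whose values overlap between the conditions.

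HIST1H4C, another H4 gene (ENSG00000197061, chr6:26103933-26104337), was at 84.9 and 80.1 CPM in LN-229, at 84.9 and 57.8 in T98G, and at 244 and 106 CPM in U251. It fell by 0.61 (SE 0.17, adjusted p = 0.0484 by limma) and was lower in 3 of 3 lines, with a change of −0.08 in LN-229. Here too the conditions overlap, since the siHOTAIRM1 library of U251 lies above the siControl libraries of the other lines.

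HIST1H3G, an H3 gene (ENSG00000273983, chr6:26270918-26271413), was near 0 in LN-229 with 0.0793 and 0.0770 CPM, so its change there (0.00 after rounding) holds no information. It was at 90.1 and 62.4 CPM in T98G and at 138 and 51.3 CPM in U251. The fitted change was −0.65 (SE 0.17, limma adjusted p = 0.0406), and it rests on 2 lines.

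These 3 calls were not stable. Of 11 alternatives each call was kept under 2, a pseudocount of 0.1 CPM and a fit without LN-229, which both gave 9 members, and was lost under the other 9. Over the 11 the limma adjusted p ranged from 0.0028 to 1 for HIST1H4B, from 0.00801 to 1 for HIST1H4C and from 0.00703 to 1 for HIST1H3G, and the changes from −0.93 to −0.36, from −0.87 to −0.32 and from −0.97 to −0.26, the weakest without U251. No member was called when libraries were centered on their median, where 41 of all 14294 genes were. None was called when a line other than LN-229 was left out, but without T98G limma called 0 of all genes (1206 at an unadjusted p under 0.05), and without U251 149, against 270 without LN-229.

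Of the 17 most abundant members that were not called, HIST1H3B and HIST1H1C came closest in size. HIST1H3B had −0.52 (SE 0.17, limma adjusted p = 0.0868) and was higher by 0.05 in LN-229. HIST1H1C had −0.51 (SE 0.16, limma adjusted p = 0.0900) and was lower in 3 of 3 lines. HIST1H1B had −0.44 (adjusted p = 0.168 by limma), HIST1H1D −0.44 (0.113) and HIST1H1E −0.37 (0.216). HIST2H2AA4 (−0.32) and HIST2H4A (−0.42) were higher with siHOTAIRM1 in LN-229, by 0.09 and 0.36, and lower in both other lines. The H2B genes HIST2H2BE (−0.17), HIST2H2BF (−0.03) and HIST1H2BD (−0.23) had the smallest changes of this group. Among the rest HIST1H3C was at −0.46, HIST1H2AG at −0.45, HIST1H2BG, HIST1H4E and others at −0.37 or above.

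Other transcripts moved in U251 at the same time. Among non-polyadenylated RNA, 50 of 91 tested genes (54.9%) were past the fold downward in U251 and 0 in T98G, with medians of −0.02, −0.09 and −0.62 in LN-229, T98G and U251. RN7SL1, the RNA of the signal recognition particle, was at 18560 and 21050 CPM in LN-229, 16120 and 11860 in T98G, and 60590 and 27890 in U251. RN7SK, which binds the elongation factor P-TEFb, was at 10650 and 12910, 10440 and 8922, and 22600 and 9860 CPM. Summed clustered histone CPM per 1000 CPM of non-polyadenylated RNA was 45.5 and 40.7 in LN-229, 61.2 and 57.8 in T98G, and 28.5 and 30.8 in U251. On this scale the sum of all members differed by little between the libraries of U251. This does not hold for each class, since the class ratios in U251 ran from 0.434 (H3) to 0.779 (H2B). Of the 136923 CPM of non-polyadenylated RNA in the siControl library of U251, RN7SL1, RN7SL2 and RN7SK held 60589, 36870 and 22596. The part of these transcripts in the histone result was not tested.

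Short mRNAs were lower in U251 as well. The 264 tested protein-coding genes with transcripts of at most 1000 bases, members left out, had median changes of 0.03, −0.33 and −0.48 in LN-229, T98G and U251, and 47.7% were past the fold downward in U251. With the dependence on transcript length taken out of the changes, the median fitted change of the members was −0.12 and 0 of them were called. The part of transcript length in the result was not tested.

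Histone genes outside the clusters, listed as genes with polyadenylated mRNAs, had other medians. Whether this holds for every mRNA form of each listed gene was not checked. Of 12 listed genes 11 were tested, with medians of 0.11, −0.09 and 0.00 in LN-229, T98G and U251 and none past the threshold on knock-down. H3F3B, which encodes the variant H3.3, was at 274 and 295 CPM in LN-229, 199 and 172 in T98G, and 422 and 402 in U251. H2AFZ, which encodes H2A.Z, was at 174 and 168, 175 and 123, and 312 and 191 CPM, with changes of −0.50 in T98G and −0.71 in U251, close to those of the clustered genes. H2AFY (macroH2A1) had changes of −0.12, −0.24 and 0.19.

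**Figure D4:**
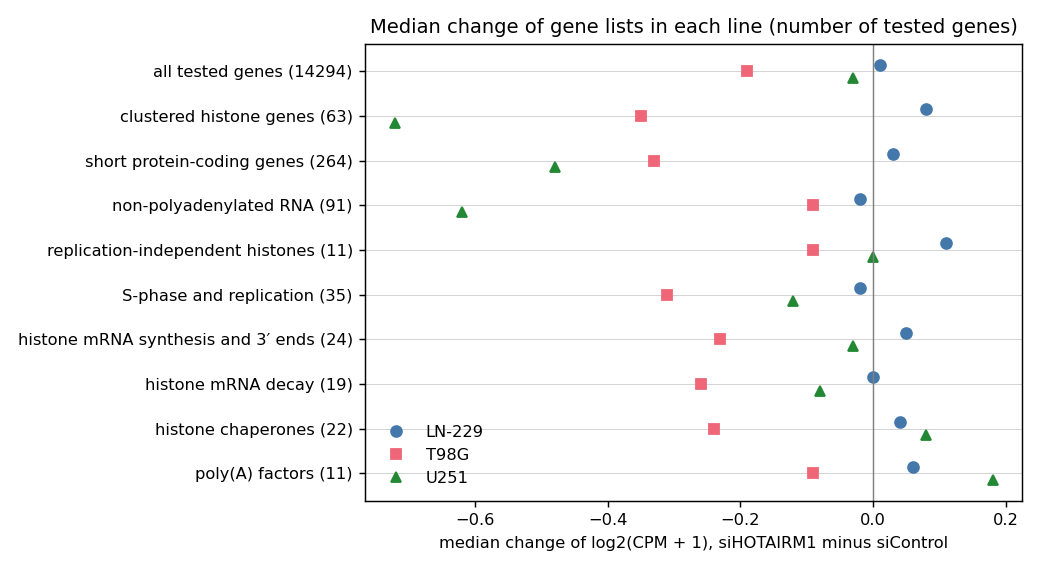
Median change of log2(CPM + 1), siHOTAIRM1 minus siControl, of gene lists in LN-229, T98G and U251, with the number of tested genes in brackets. In U251 the clustered histone genes (−0.72), non-polyadenylated RNA (−0.62) and short protein-coding genes (−0.48) lie apart from the other lists.

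None of the 6 lists of genes around histone supply had a gene past the threshold on knock-down. For transcription and 3′ end processing of histone mRNA (24 tested) the median fitted change was −0.07. Within it SLBP, the stem-loop binding protein, had −0.16 (SE 0.14, limma adjusted p = 0.563) and NPAT, the activator of histone gene transcription, −0.12 (0.671), and the 3 most abundant genes NCBP2, CPSF2 and YY1 changed by −0.03, −0.22 and 0.01 in U251. For histone mRNA decay (19 tested) it was −0.13, with SMG1, DCP2 and XRN1 at 0.61, 0.01 and 0.10 in U251. There 12 of the 19 were lower and 5 (26.3%) were past the fold downward, against 11.9% of all tested genes. These were LSM3 (−1.01), LSM1 (−0.65), LSM5 (−0.64), LSM2 (−0.61) and LSM7 (−0.50), chosen after their values were seen. They belong to the LSM ring that binds RNA 3′ ends, whose other listed genes LSM4 and LSM6 changed by −0.32 and 0.02. For histone chaperones (22 tested) it was −0.03, with NAP1L1, ATRX and SSRP1 at −0.10, 0.17 and 0.35 in U251.

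S-phase and replication genes are made in the same part of the cell cycle as the clustered histones. All 35 were tested, 0 were called, and the median fitted change was −0.15. Of all 14294 tested genes 9114 had a fitted change below 0, and of these 35 genes 30 had. Their medians by line were −0.02, −0.31 and −0.12, against 0.08, −0.35 and −0.72 for the members. The replicative helicase genes MCM7 and MCM4 changed by −0.19 and 0.01 in U251, and PCNA, the sliding clamp, went from 126 to 86.4 CPM there (−0.54). The poly(A) polymerases and nuclear poly(A) factors (11 tested, 0 called) had a median of 0.04, and PABPC1, NUDT21 and PAPOLA changed by 0.18, −0.02 and 0.15 in U251. Of non-polyadenylated RNA 4 genes were called lower and 0 higher: SNORD3B-2 (−2.30 in U251), and by their fitted changes SNORD3C (−0.71), RN7SKP9 (−0.57) and RN7SL128P (−0.50).

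The lines differed from each other in single histone genes more than in the whole. LN-229 was higher than T98G in 11 of 63 members (17.5%) and lower in 10 (15.9%), where 30.8% and 24.1% of all tested genes were. LN-229 was higher than U251 in 14 (22.2%) and lower in 22 (34.9%), against 23.9% and 36.7% of all. T98G was higher than U251 in 13 (20.6%) and lower in 19 (30.2%), against 23.1% and 41% of all. The share called was thus near or under that of all genes in each contrast. The balance of higher and lower members depended on the scaling. With libraries centered on their median, without non-polyadenylated RNA and with the length trend removed, LN-229 against U251 had 16, 19 and 26 members higher and 13, 10 and 9 lower, and T98G against U251 20, 25 and 33 higher and 11, 10 and 10 lower, both turned from the values above. LN-229 against T98G had 10, 11 and 11 higher and 16, 11 and 19 lower. Single libraries turned it too: without the siControl library of U251, LN-229 against U251 had 17 higher and 7 lower and T98G against U251 15 and 9. Without the siControl library of LN-229, LN-229 had 16 higher and 7 lower than U251. The contrasts share libraries, and the siControl and siHOTAIRM1 libraries of a line stand in for replicates.

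Past the threshold in all 3 contrasts were 7 members: HIST1H2BE, HIST1H2BM, HIST1H3J, HIST2H2BB, HIST2H2BF, HIST3H2A and HIST4H4. In none were 15, among them HIST1H1B, HIST1H2AG, HIST1H2AI, HIST1H2BD and the HIST2 genes of H3 and H4. The matching shares of all tested genes were not counted, so the 7 and the 15 show no trait of the members. Taken singly, the contrasts LN-229 with T98G, LN-229 with U251 and T98G with U251 called 7851, 8664 and 9170 of all 14294 genes. They called 21, 36 and 32 of the 63 members. Of the H1 genes HIST1H1D was lower in LN-229 (mean of the line's 2 libraries 46.9 CPM) than in T98G (105 CPM, log2 difference −1.13, SE 0.19, limma adjusted p = 3.66e-06) and U251 (97.3 CPM). HIST1H4C was higher in U251 (175 CPM) than in LN-229 (82.5 CPM) and T98G (71.3 CPM). Its limma call against LN-229 was lost without the siControl library of U251 (adjusted p = 0.105) or of LN-229 (0.0981), and with no filter on level (0.0623). HIST2H2BF had the order LN-229 (109 CPM), T98G (72.7 CPM) and U251 (50.1 CPM), and each step passed the threshold with all libraries. The step from LN-229 to T98G was lost without the siHOTAIRM1 library of either line (limma adjusted p = 0.155 and 0.111). That from T98G to U251 was lost without the siControl library of T98G (0.13), without the siControl or siHOTAIRM1 library of U251 (0.0874 and 0.0992) and with no filter on level (0.0524), while the difference between LN-229 and U251 passed under all of these.

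A few members were far lower in a single line than in the others. These were picked after their values were seen, as members whose highest library in the line was at least 4-fold under the lowest library of both other lines, with that library at 1 CPM or more. There were 12, of which 3 were low in LN-229 (1.78% of all tested genes met this), 6 in T98G (2.11% of all) and 3 in U251 (2.55% of all).

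In LN-229 the neighbors HIST1H3G and HIST1H2BI, whose genes lie 1517 bases apart, were both low. HIST1H2BI was at 1.85 and 1.80 CPM in LN-229 and at 36.7 to 66.5 CPM elsewhere, 19.9-fold under the lowest of the other libraries. HIST1H3G was 647-fold under it. The third, HIST1H3J, was at 0.0566 and 0.125 CPM in LN-229, at 27.5 and 20.9 in T98G and at 7.04 and 4.95 in U251.

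In T98G there were 2 pairs that each consist of an H2A and an H2B gene transcribed away from each other. HIST1H2BK and HIST1H2AH, 250 bases apart, were at 6.46 and 5.11 CPM and at 4.79 and 4.14 CPM in T98G, and at 40.7 to 57.5 CPM and 32.2 to 65.0 CPM in the other libraries. HIST3H2A and HIST3H2BB, 229 bases apart, had 2 and 0 reads and 3 and 2 reads in T98G, at or under the floor, and were at 1.51 to 4.27 CPM and 5.90 to 9.84 CPM elsewhere. The remaining 2 were the H4 gene HIST1H4I (0.405 and 0.426 CPM in T98G, 5.47 to 12.6 CPM elsewhere) and the pseudogene HIST2H2BB (0.171 and 0.215 CPM, against 1.81 to 4.04 CPM).

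In U251 all 3 were H4 genes that encode the same protein. HIST1H4J had no read in U251 and was at 36.2 to 53.9 CPM in the other lines, at least 630-fold higher than the floor of 3 reads in the shallower U251 library. HIST1H4L had 0 reads and 1 read in U251 and 19.0 to 24.5 CPM elsewhere, and every coding stretch of it is unique. HIST1H4K had 1 read in each U251 library and 1.94 to 3.78 CPM elsewhere. HIST1H4J and HIST1H4K have no unique coding stretch, so their values rest on how the authors' counting split shared reads.

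**Figure D5:**
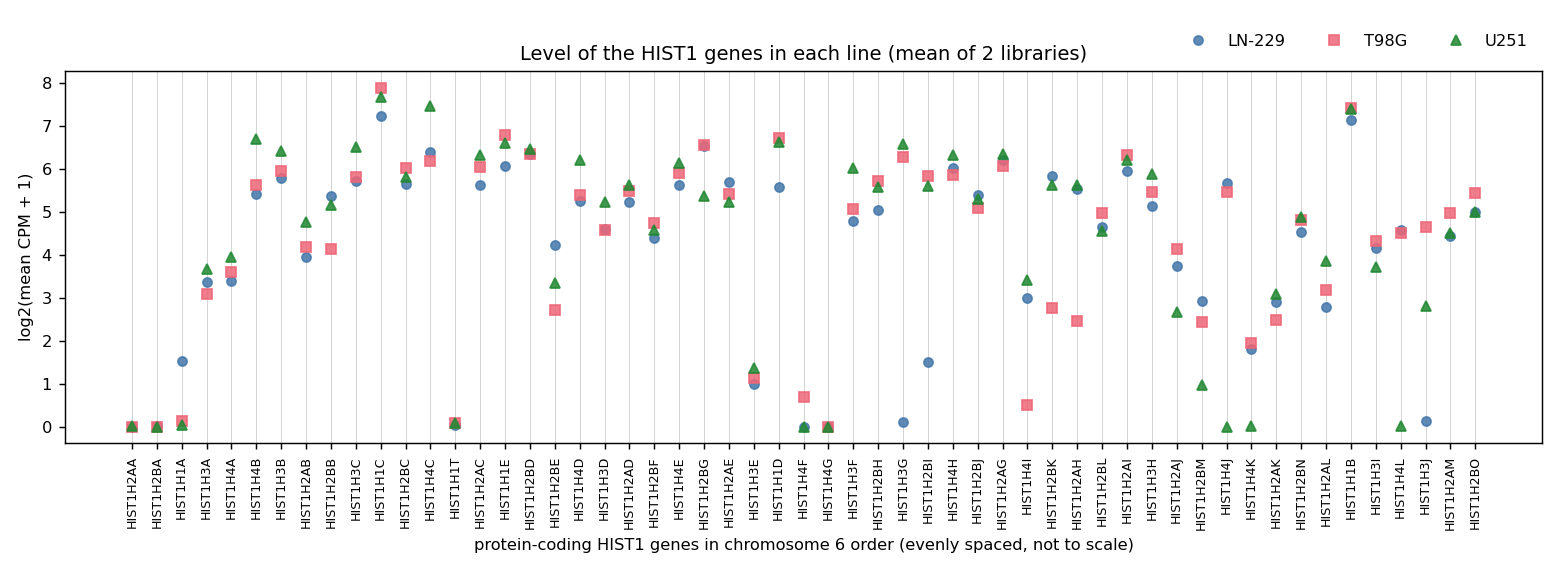
Mean level of the protein-coding HIST1 genes as log2(CPM + 1) in LN-229, T98G and U251 (mean of 2 libraries each), in their order on chromosome 6 and evenly spaced. The lines lie close together at most genes and far apart at HIST1H3G, HIST1H2BI and HIST1H3J (LN-229 low), HIST1H4I, HIST1H2BK and HIST1H2AH (T98G low) and HIST1H4J, HIST1H4K and HIST1H4L (U251 low).

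Some of the low genes were next to each other and others were not. Between HIST1H4J and HIST1H4L lie, besides HIST1H4K, HIST1H2AK, HIST1H2BN, HIST1H2AL, HIST1H1B and HIST1H3I, which had means of 7.49, 28.5, 13.6, 167 and 12.1 CPM in U251. HIST1H4I and the pair HIST1H2BK and HIST1H2AH follow each other on chromosome 6 (chr6:27139282-27147562), and the next member on either side, HIST1H2AG and HIST1H2BL, was at 66.4 and 30.3 CPM in T98G. HIST1H2BH and HIST1H4H, on either side of HIST1H3G and HIST1H2BI, were at 32.0 and 63.7 CPM in LN-229.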

How the data were processed

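The authors made libraries from 500 ng of total RNA with the TruSeq RNA v2 kit, sequenced 101 cycles, and in Partek Flow trimmed 13 bases at the 5′ end and 1 at the 3′ end, aligned to hg38 with STAR 2.4.1d and then Bowtie 2, and quantified genes of Ensembl release 84 by Expectation-Maximization. The deposited values are CPM with 0.0001 added to each. Since shared reads are split, values are not whole reads throughout and tests for counts were not used.

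The 14294 genes whose mean reached 1 CPM were tested on log2(CPM + 1) with limma 3.58.1 (R 4.3.3), mean-variance trend and Benjamini-Hochberg adjustment, with the cell line as block for knock-down and the condition as covariate between lines. A change on this scale understates that of low genes. The lines pair the libraries: deviations from the condition means correlated at 0.948 or more within a line. Between lines they correlated at −0.467 or less. That value is no evidence of pairing, since the deviations of the 3 lines sum to 0 and a negative correlation is built in. For knock-down the p-values rest on the spread of changes between 3 lines, which limma draws toward that of genes of like level. The SE of a gene can thus lie under the spread of its own 3 changes. With a paired t-statistic for each gene alone, 0 members had an unadjusted p under 0.05. Between lines the p-values rest on what line and condition leave unexplained. The procedure was tested on simulated data. No test was made within a line. Depth came from the step of 1 read, intervals are 95% and cover counting error only.

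Symbols were matched to GENCODE v44 through RefSeq synonyms (34312 genes, 1821 by an older symbol), a later annotation than the authors'. Of tested genes 91.4% had a transcript length. Python 3.11.15 with numpy 2.4.6, pandas 2.3.3 and matplotlib 3.10.9 was used. The members and the gene lists were chosen with earlier results of these data known. Named were HOTAIRM1, members past the threshold, the 20 members with the highest mean CPM, the 3 highest and 3 lowest changes in each line, and of each list the genes past the threshold and the 3 most abundant. Others were named after their values were seen. The alternatives were another pseudocount, other filters and scalings, removal of the trend with transcript length, no block, a paired t-statistic per gene, and leaving out lines or libraries.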

Additional observations from a re-analysis of the deposited data

Results flagged for a closer look

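Summed clustered histone CPM differed in direction between the lines, higher with siHOTAIRM1 in LN-229 and lower in T98G and U251. The log2 ratio of siHOTAIRM1 to siControl was 0.45 higher in LN-229 than in T98G and 0.87 higher than in U251. For H2A the gaps were 0.40 and 0.90, for H3 0.59 and 1.38, and for H4 0.57 and 1.07. The difference was not tested, since each line has 1 library per condition, and the sign of the sum in LN-229 turned when libraries were scaled to the same median, while H2A, H3 and H4 stayed above 0 there. With that scaling the gaps to T98G and U251 were 0.19 and 0.75 for all rows, 0.14 and 0.78 for H2A, 0.33 and 1.25 for H3, and 0.32 and 0.95 for H4. HIST1H1PS1, a pseudogene row left out of the members, reached 0.0962 CPM in a siHOTAIRM1 library, above its siControl libraries.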

How the results depend on the processing

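On knock-down 3 members were past the threshold. With a pseudocount of 0.1 CPM there were 9. There were 0 with a filter at a mean of 0.1 CPM, 0 with no filter, 0 with libraries centered on their median, 0 when rescaled without non-polyadenylated RNA, 0 with the length trend removed, 0 without the replicate block and 0 with a paired t-statistic for each gene alone (32 main, 28, 14, 18, 14, 9, 0 and 0 members in this order at an unadjusted p under 0.05). Leaving out a line gave 0 to 9 members, with 9 without LN-229, 0 without T98G and 0 without U251, whose siControl library stood apart. Over all tested genes the main count of 286 became 683 with the smaller pseudocount, 19 and 0 with the other filters, 41, 14 and 58 with the other scalings, and 0 without the block. The cause of each lost call was not tested.

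Between LN-229 and T98G 21 members were past the threshold, and 13 to 23 when a library was left out (13 without either T98G library). Between LN-229 and U251 there were 36, with 18 without a filter, 21 without the condition term, and 23 (without the siControl library of LN-229) to 37 when a library was left out. Between T98G and U251 there were 32, with 20 without a filter, 21 without the condition term, and 17 (without the siControl library of T98G) to 33 when a library was left out. The other alternatives kept the totals within 1.5 times these counts, but not the balance of higher and lower members. With the length trend removed LN-229 against U251 went from 14 higher and 22 lower to 26 and 9, and T98G against U251 from 13 and 19 to 33 and 10.

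The change of summed histone CPM was 2.56%, −24.9% and −44.0% in LN-229, T98G and U251. It was −0.351%, −12.92% and −40.62% with libraries scaled to the same median, 0.8261%, −12.76% and −38.53% without non-polyadenylated RNA, 3.969%, −24.23% and −44.35% without HIST1H1C, and 5.935%, −22.71% and −41.47% as the median over members. Of 341 alternative values of 31 named members, 305 kept their side of the threshold, and 297 were below 0. Only 3 of these members were called in the main fit, so most of the 305 stayed uncalled. Each of the 3 called members kept its call under 2 of 11 alternatives. With 1 library per line and condition, no difference within a line could be tested, and the spread between libraries of the same line and condition was not measured.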
